A study of Mus musculus with 6 samples.

Results

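Nkain1, Nsg1, Nsg2, Pacsin1, Fam171b, Pou6f1, Phyhd1, Plagl1 and Hes7 are 9 of the 18046 genes listed in the expression tables of this study. They were chosen by their change: all but Nsg1 are genes with no settled role in T cells that stand among the largest differences between the 2 groups of libraries, and Nsg1 was added as the relative of Nsg2. The differences of those 8 genes are therefore given as a description, with no test. Tests are given for what the choice did not use: their gene families, pathway partners and chromosomal neighbours, cell type markers, and Nsg1. The last section also prints adjusted p-values of genes picked by their rank, as a description.

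All 6 libraries were made from naive CD4+ T cells, from the spleen of C57BL/6 mice aged 3 weeks. In all of them the cells had been stimulated for 3 days through CD3 and CD28 with antibodies, in medium that steers them to T helper 1 (Th1) cells. The 3 vehicle libraries had the carrier alone, and the 3 LPC libraries had LPC at 20 µM. The comparison asks how LPC alters gene expression in such cells; the labels neither spell out LPC nor name the vehicle. Nothing in the labels ties the 3 libraries of each group to different mice or cultures. The p-values thus reflect variation among these samples only, and that may be technical. Levels are in FPKM, fragments scaled by exon length and by the mapped reads of the library, so levels of different genes can be set side by side.

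The 9 genes are best known outside the immune system. Nkain1 encodes a membrane protein that binds the β subunit of the Na,K-ATPase, the pump that keeps the sodium and potassium gradients. Nsg1 and Nsg2 encode small membrane proteins of neuronal endosomes, with roles in the recycling of receptors to the surface. Pacsin1, also called syndapin I, is an F-BAR protein that bends membranes and binds dynamin and N-WASP during endocytosis, and Fam171b encodes a membrane protein whose function is little known. Phyhd1 belongs to the oxygenases that use iron and 2-oxoglutarate and resembles phytanoyl-CoA hydroxylase. The other 3 are transcription factors: Pou6f1 has a POU domain, Plagl1 (Zac1) is an imprinted zinc finger protein that restrains proliferation, and Hes7 is a basic helix-loop-helix repressor known from the segmentation clock of the embryo, where it represses its own gene.

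Of the 9 genes, 8 reached 1 FPKM in every library, and Nsg1 did so in none. Nkain1 and Nsg1 were higher in every LPC library than in every vehicle library, and the other 7 were lower in every LPC library. Among the 10138 genes with at least 1 FPKM in 3 or more libraries, the groups did not overlap for 34.5%, with LPC higher for 13.7% and lower for 20.7%; since this contrast chose the genes, nothing is read from their count. In these bulk samples, fewer cells expressing a gene and less of its RNA per cell cannot be told apart. The plot of levels by library shows each gene's 6 values.

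**Figure D1:**
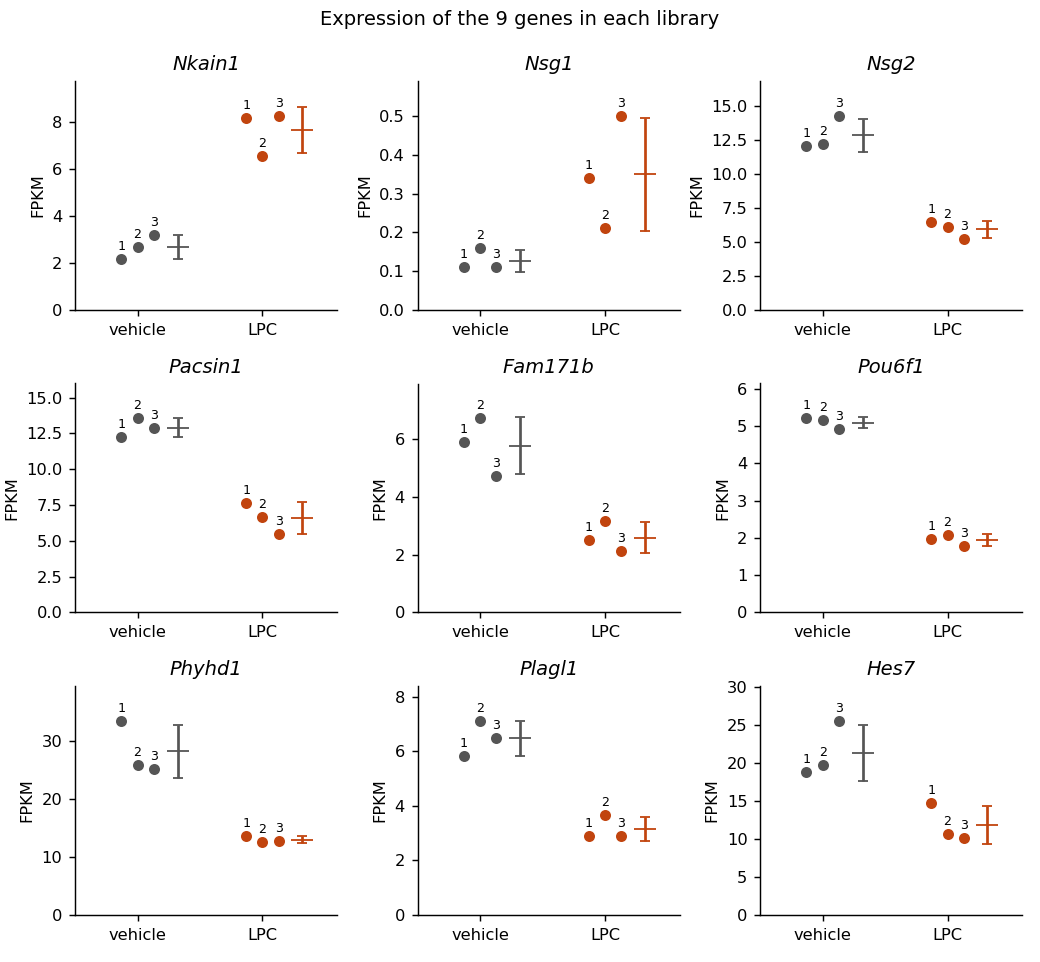
FPKM of the 9 genes in each library (grey, vehicle; orange, LPC; numbers are the replicates), with the mean and SD of each group of 3; each panel has its own axis from 0. Nkain1 lies between 2.17 and 3.17 with vehicle and between 6.54 and 8.25 with LPC, and no panel has overlapping groups.

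The libraries were of similar size. FPKM summed to between 556561 and 641026 per library, and 10002 to 10139 genes reached 1 FPKM. Low values came nearest to whole reads at an estimated depth of 18.5 to 19.0 M reads per library, so the precision of low genes rests on few reads. LPC replicate 3 had the highest sum and stood farthest along the first principal component (58.4% of the variance), and it held the most extreme LPC value for 5 of the 7 lower genes and for both higher ones. All 13 markers of CD4 T cells were expressed, with sums of 3316 to 3554 FPKM with vehicle and 3313 to 3443 with LPC. Ifng was a large part of these sums, at 1129.2 to 1306.35 FPKM with vehicle and 1132.95 to 1215.28 FPKM with LPC. None of the 13 passed limma's test at an adjusted p under 0.05, and 1, Cd4 itself, had an unadjusted p under 0.05. Cd4 was lower in every LPC library, at 185.33 to 205.2 FPKM with vehicle and 143.89 to 177.07 FPKM with LPC (-0.27, adjusted p = 0.0875, limma). Markers of other cell types are given after the families, since several of these 9 genes are known from neurons.

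Nkain1 was the gene of this group that was higher with LPC at a well measured level. Its level was 2.17, 2.67 and 3.17 FPKM in vehicle replicates 1 to 3 and 8.18, 6.54 and 8.25 FPKM in LPC replicates 1 to 3. The lowest LPC value was 2.06 times the highest vehicle value. Mean FPKM was 2.67 ± 0.500 (SD, n = 3) with vehicle and 7.66 ± 0.968 (SD, n = 3) with LPC, 2.87-fold higher, and the difference on the log2(FPKM + 1) scale was 1.24 with a standard error (SE) of 0.12. These values rest on an estimated 49.6 to 72.4 reads with vehicle and 149 to 187 with LPC. Only 7 tested genes had a larger rise; Mt3 stood next above Nkain1 at 1.39 and Serpine2 next below at 1.16. The gene lies at chr4:130530131-130574216 on the minus strand (GRCm38).

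RefSeq's promoter table of GRCm38.p6 gives, for Nkain1, the 250 bases before a start at position 130574036, a start 180 bases inside the gene interval above, so 180 of these bases lie within the gene. This window, chr4:130574037-130574286, holds 36 CG dinucleotides and 80.4% GC. The 70 bases that lie before the outermost start, chr4:130574217-130574286 on the minus strand, are shown because the window stands out for its CG; they are read 5′ to 3′, and capitals mark every CG that lies wholly within them.
Nkain1: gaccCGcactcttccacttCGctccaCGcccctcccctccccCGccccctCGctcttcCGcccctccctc
Among 17769 such windows of listed genes the median was 12 CG and 57.6% GC, and 3.83% of windows held as many CG as that of Nkain1 or more. The windows of Pacsin1 (26 CG), Pou6f1 (20 CG) and Plagl1 (19 CG) were also above the median, though these genes were lower with LPC. The opposite case is Phyhd1, whose window before its outermost start, chr2:30265953-30266202 on the plus strand, holds 1 CG and is shown whole for contrast, with the same marking.
Phyhd1: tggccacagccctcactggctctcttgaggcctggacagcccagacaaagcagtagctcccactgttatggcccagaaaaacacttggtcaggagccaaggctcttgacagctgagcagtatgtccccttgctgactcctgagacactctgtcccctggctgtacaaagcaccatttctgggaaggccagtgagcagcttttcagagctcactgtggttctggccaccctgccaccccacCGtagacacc
Of all windows, 8.68% hold 1 CG or fewer. Windows were found for 7 of the 9 genes (10 windows, as some genes have several starts), and the 2 windows of Nsg2 hold 6 and 9 CG. Apart from those of Plagl1 and the first of Phyhd1, the windows of these genes overlap the gene's own interval in part or whole.

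Nsg2 and Nsg1 are close relatives that differed in level and in direction. Nsg2 stood at 12.10, 12.21 and 14.28 FPKM in vehicle replicates 1 to 3 and at 6.47, 6.12 and 5.23 FPKM in LPC replicates 1 to 3. All 3 LPC values were close to each other and lay well below the lowest vehicle value. Mean FPKM was 12.9 ± 1.23 (SD, n = 3) with vehicle and 5.94 ± 0.639 (SD, n = 3) with LPC, a 2.17-fold lower level, with a log2(FPKM + 1) difference of -0.999 (SE 0.11).

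Nsg1 was near the floor of the measurement. It was listed at 0.11, 0.16 and 0.11 FPKM in vehicle replicates 1 to 3 and at 0.34, 0.21 and 0.50 FPKM in LPC replicates 1 to 3, an estimated 5.39 to 7.85 reads against 10.3 to 23.9. The groups did not overlap, but LPC replicate 2 was close to the highest vehicle library. Mean FPKM was 0.127 ± 0.0289 (SD, n = 3) with vehicle and 0.350 ± 0.145 (SD, n = 3) with LPC. Nsg1 did not enter the test of genes above 1 FPKM; in a limma fit of all 18046 genes its difference was 0.26 (SE 0.08) with an adjusted p of 0.192 and an unadjusted p of 0.0271, where 1.06% of genes passed. The 3′ end of Nsg1 overlaps that of Stx18 on the other strand, and whether counting used the strand is not given in the sources used here. Nsg2 made up 98.2 to 99.2% of the summed FPKM of Nsg1, Nsg2 and their relative Caly with vehicle and 91.3 to 96.7% with LPC. Nsg2 lies at chr11:31999704-32059211 on the plus strand and Nsg1 at chr5:38137193-38159743 on the minus strand.

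Pacsin1 was the tightest of the vehicle groups after Pou6f1. It stood at 12.25, 13.54 and 12.90 FPKM in vehicle replicates 1 to 3 and at 7.67, 6.63 and 5.46 FPKM in LPC replicates 1 to 3. The LPC libraries spread more than the vehicle libraries, with replicate 3 lowest. Mean FPKM was 12.9 ± 0.645 (SD, n = 3) with vehicle and 6.59 ± 1.11 (SD, n = 3) with LPC, 1.96-fold lower, a log2(FPKM + 1) difference of -0.88 (SE 0.11). Its paralogs did not pass the test on the deposited values. Pacsin2, the widely expressed paralog, was at 25.4 to 28.5 FPKM with vehicle and 22.0 to 25.9 FPKM with LPC, overlapping ranges with a difference of -0.11 (adjusted p = 0.449, limma). Pacsin3 was lower in every LPC library, at 1.00 to 1.20 FPKM with vehicle and 0.75 to 0.85 FPKM with LPC (-0.23, adjusted p = 0.12, limma), and passed once GC and length trends were removed (-0.33, adjusted p = 0.0273, limma). Pacsin1 made up 31.1 to 32.8% of the summed FPKM of the 3 paralogs with vehicle and 19.4 to 22.4% with LPC. Pacsin1 lies at chr17:27655591-27711118 on the plus strand.

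Fam171b was at 5.88, 6.71 and 4.73 FPKM in vehicle replicates 1 to 3 and at 2.50, 3.16 and 2.11 FPKM in LPC replicates 1 to 3. Its spread within groups was among the widest of the 9 genes, yet the highest LPC library stayed below the lowest vehicle library. Mean FPKM was 5.77 ± 0.994 (SD, n = 3) with vehicle and 2.59 ± 0.531 (SD, n = 3) with LPC, 2.23-fold lower, a log2(FPKM + 1) difference of -0.92 (SE 0.13). Fam171a1 and Fam171a2, the other members of the family, stayed at or under 0.18 FPKM in every library, and Fam171b made up 96.6 to 98.0% of the family's summed FPKM with vehicle and 94.1 to 96.8% with LPC. Fam171b maps to chr2:83812563-83883534 on the plus strand.

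Phyhd1 had the highest level of the 9 genes in the vehicle group. It stood at 33.48, 25.87 and 25.24 FPKM in vehicle replicates 1 to 3 and at 13.67, 12.64 and 12.71 FPKM in LPC replicates 1 to 3. Vehicle replicate 1 was well above the other 2 vehicle libraries, while the LPC libraries nearly coincided. Mean FPKM was 28.2 ± 4.59 (SD, n = 3) with vehicle and 13.0 ± 0.576 (SD, n = 3) with LPC, 2.17-fold lower, a log2(FPKM + 1) difference of -1.05 (SE 0.11); without vehicle replicate 1 it was -0.92. The position of Phyhd1 is chr2:30266203-30282149 on the plus strand.

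Pou6f1 had the clearest separation of the lower genes. It was at 5.20, 5.16 and 4.91 FPKM in vehicle replicates 1 to 3 and at 1.96, 2.08 and 1.78 FPKM in LPC replicates 1 to 3. Both groups were narrow, and the lowest vehicle value was 2.36 times the highest LPC value. Mean FPKM was 5.09 ± 0.157 (SD, n = 3) with vehicle and 1.94 ± 0.151 (SD, n = 3) with LPC, 2.62-fold lower, a log2(FPKM + 1) difference of -1.05 (SE 0.10), the fourth largest fall of all tested genes. Pou6f1 is found at chr15:100575318-100600061 on the minus strand.

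Plagl1 was at 5.83, 7.12 and 6.50 FPKM in vehicle replicates 1 to 3 and at 2.90, 3.65 and 2.91 FPKM in LPC replicates 1 to 3. The groups were well apart, and replicate 2 was the highest library in both. Mean FPKM was 6.48 ± 0.645 (SD, n = 3) with vehicle and 3.15 ± 0.430 (SD, n = 3) with LPC, 2.06-fold lower, a log2(FPKM + 1) difference of -0.85 (SE 0.11). Its paralog Plagl2 was far more abundant, at 119.66 to 149.36 FPKM with vehicle and 95.48 to 126.51 FPKM with LPC, overlapping ranges with a difference of -0.29 (adjusted p = 0.11, limma). Plagl1 made up 3.97 to 5.14% of the summed FPKM of Plag1, Plagl1 and Plagl2 with vehicle and 2.48 to 2.95% with LPC. Plagl1 maps to chr10:13090832-13131694 on the plus strand and overlaps the noncoding gene Hymai.

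Hes7 had the smallest gap between the groups. It was at 18.79, 19.70 and 25.53 FPKM in vehicle replicates 1 to 3 and at 14.67, 10.59 and 10.10 FPKM in LPC replicates 1 to 3. Vehicle replicate 3 was the highest and LPC replicate 1 came closest to the vehicle group. Mean FPKM was 21.3 ± 3.66 (SD, n = 3) with vehicle and 11.8 ± 2.51 (SD, n = 3) with LPC, 1.81-fold lower, a log2(FPKM + 1) difference of -0.81 (SE 0.14), which ranged from -0.97 without LPC replicate 1 to -0.68 without vehicle replicate 3. Hes7 is located at chr11:69118906-69124054 on the plus strand and overlaps a noncoding transcript on the minus strand.

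The Hes7 protein is known to bind its own promoter through N-box and E-box sites and belongs to a family that also binds class C sites, so 1 stretch before a Hes7 start is shown. RefSeq's table places this start at position 69120453, which is 1547 bases inside the gene interval above. The stretch is the 30 bases before it, chr11:69120423-69120452 on the plus strand of GRCm38.p6, read 5′ to 3′, and capitals mark the match to the class C site CACGCG.
Hes7: ataaggatctaggcagCACGCGctgagtcc
The class C match begins 14 bases before that start. GENCODE annotates all 30 bases shown, and the whole 250-base window of this start, as untranslated region of a transcript. Outside the stretch shown, that window also holds an N-box match (CTCGTG) that begins 116 bases before the start, and it holds no E-box match. The N-box CACNAG, the E-box CACGTG and the class C site were searched on both strands of the 250-base windows. Of the 10 windows of the 9 genes, 4 hold an N-box match, 4 a class C match and 2 an E-box match, and of all 17769 windows 36.1%, 11.6% and 7.24% do. A match to the octamer ATGCAAAT, the site of POU2 factors, was in none of the 10 windows and in 1.46% of all windows. The letters AAGGTCA, which lack the first A of the full NR4A site, were in 3.43% of all windows and in 2 overlapping windows of Phyhd1. In Phyhd1 the base before these letters is C and not A, so the match is not the full site. The full NR4A site was not counted over all windows. The EGR site GCGGGGGCG (3.95% of all windows) was in the window of Pou6f1. The letters TGCNCNC, looser than the metal response element TGCRCNC (R is A or G), were in 5 of 10 windows and in 50.2% of all windows. The matches of Nkain1 (TGCGCGC) and Pacsin1 (TGCGCCC) fit the stricter form, and those of Nsg2, Phyhd1 and Plagl1 do not. The stricter form was not counted over all windows. Matches are a description of these letters and not of binding.

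Set side by side in the vehicle group, the levels ran from Phyhd1 (28.2 FPKM) and Hes7 (21.3 FPKM) through Pacsin1 and Nsg2 (12.9 FPKM each) to Plagl1 (6.48 FPKM), Fam171b (5.77 FPKM), Pou6f1 (5.09 FPKM), Nkain1 (2.67 FPKM) and Nsg1 (0.127 FPKM). Neighbours in this order had overlapping ranges over libraries except between Hes7 and Pacsin1 or Nsg2, between these and Plagl1, between Pou6f1 and Nkain1, and between Nkain1 and Nsg1. In the LPC group Nkain1 stood behind Phyhd1 and Hes7, at 7.66 FPKM, with a range that overlapped that of Pacsin1. The coefficient of variation within groups was 3.09 to 18.7% with vehicle and 4.43 to 21.3% with LPC for the 8 genes. The median tested gene had 6.49% with vehicle and 10.6% with LPC. Over the 6 libraries the 7 lower genes correlated with each other at Pearson's r of 0.77 to 0.98, a description in which the difference between the groups has a large part.

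**Figure D2:**
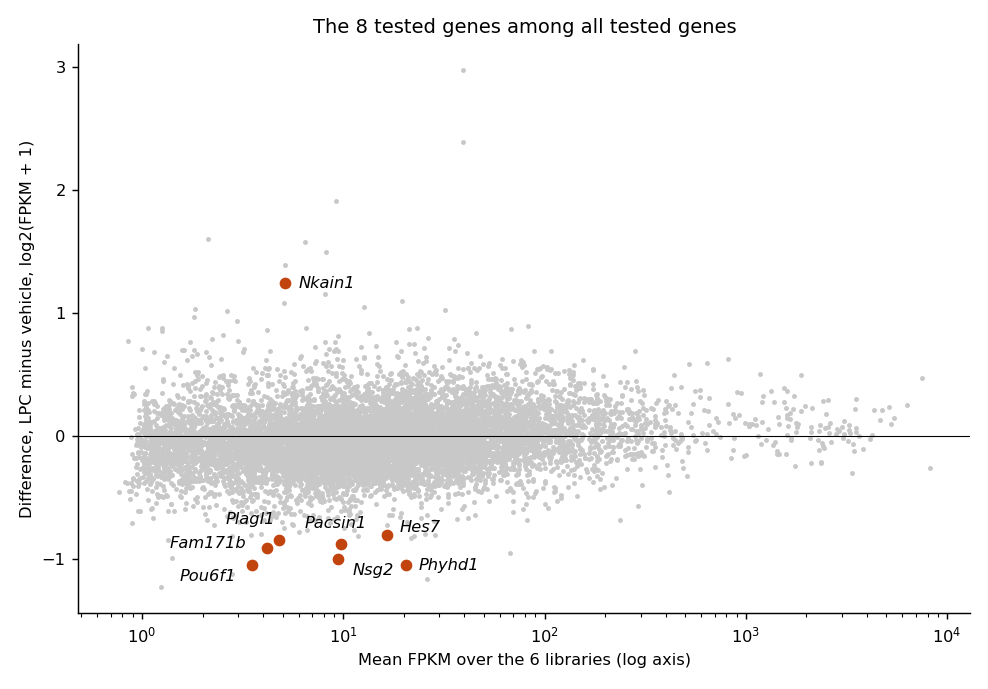
Difference on the log2(FPKM + 1) scale, LPC minus vehicle, against mean FPKM over the 6 libraries (log axis) for the 10138 tested genes (grey), with the 8 tested genes of this group in orange. Nkain1 is at 1.24 and the other 7 lie between -1.05 and -0.81, at the lower edge of the cloud, where their choice put them.

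How many of the 8 genes passed a fold threshold depended on the scale. The labels' protocols use a rule of over 2-fold with an adjusted p under 0.05. On the log2(FPKM + 1) scale 3 of the 8 genes had a difference over 2-fold, with a pseudocount of 0.1 it was 6 of the 8, and 7 of the 9 genes were over 2-fold by the ratio of mean FPKM. Of all tested genes, 0.197% (20 genes) met the rule on the first scale. Differences across all genes moved with transcript composition, with Pearson's r of 0.26 with GC share and -0.29 with log2 length across genes, which are not independent replicates. Nkain1 has the shortest (1202 bases) and most GC-rich (63.2%) transcript of the 9 genes and Fam171b the longest (5614 bases) and least GC-rich (44.1%). After both trends were removed, an alternative chosen after seeing the data, the difference was 1.08 for Nkain1, -0.80 for Fam171b, -0.76 for Plagl1, -0.91 for Hes7 and -1.13 for Phyhd1.

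**Figure D3:**
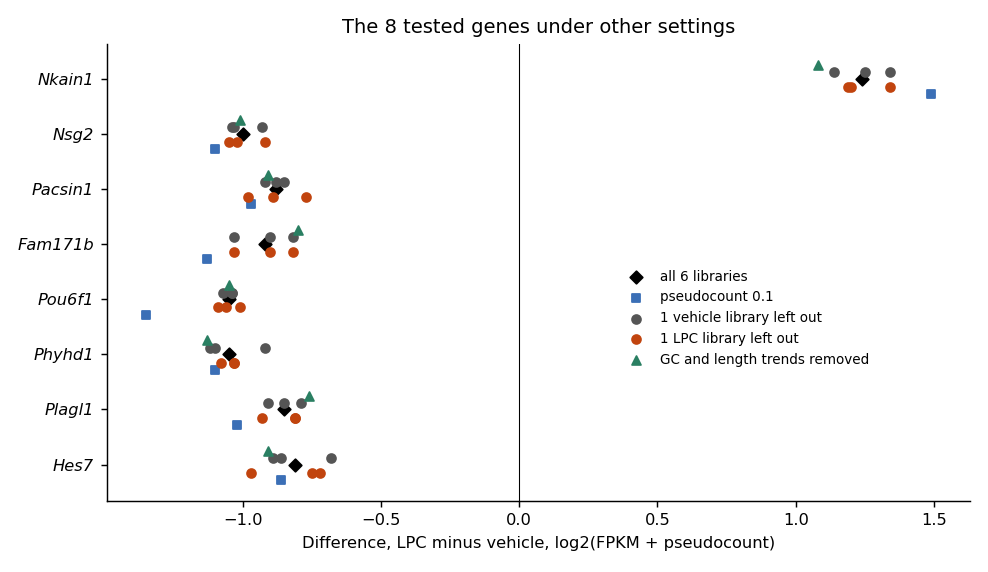
Difference of the 8 tested genes, LPC minus vehicle, on the log2(FPKM + pseudocount) scale with all 6 libraries (diamonds), with each library left out in turn (circles), with a pseudocount of 0.1 (squares) and with GC and length trends removed (triangles). The choice of genes with groups apart fixes the side of 0 on which they lie; Pou6f1 moves farthest among the lower genes, from -1.05 to -1.35 with the smaller pseudocount.

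Of the tested genes in the families and pathways of the 9 genes, 9 passed the test. Of 168 genes in 9 lists (families, partners and pathways, chosen by function), 160 were listed in the tables and 96 were tested, of which 1 rose and 8 fell (limma, adjusted p under 0.05). That is 9.38% of the tested relatives, against 13.7% of all tested genes (5.82% higher and 7.91% lower with LPC), and the median difference of the relatives was -0.08, against -0.04 for all tested genes. When limma was fitted to all 18046 genes with no filter on low values, 0 relatives passed (35 with an unadjusted p under 0.05), where 1.06% of genes did. With median centring the calls over all genes were split into 646 higher and 571 lower, against 590 and 802 here.

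In the Na,K-ATPase, recycling endosome and F-BAR lists, 1 of 4, 2 of 18 and 2 of 28 tested genes fell and none rose. Of all tested genes, 7.91% passed as lower and 5.82% as higher with LPC. With so few calls, nothing is read from their direction. Of 4 tested Na,K-ATPase and Nkain genes, Atp1b1, a β subunit of the pump, fell by 0.49 (adjusted p = 0.0149, limma), from 4.99 to 5.63 FPKM with vehicle to 3.02 to 4.31 FPKM with LPC. Its call was lost without vehicle replicate 2 (adjusted p = 0.0516, limma) or LPC replicate 1 (adjusted p = 0.073, limma). Nkain2 and Nkain3 stayed at or under 0.44 FPKM. Of 18 tested genes of the recycling endosome, Ehd3, a membrane-shaping ATPase, fell by 0.38 (adjusted p = 0.0459, limma) and the SNARE Vti1a fell by 0.36 (adjusted p = 0.036, limma). The call of Ehd3 was lost in 5 of 6 fits with 1 library left out, all but that without LPC replicate 2, with adjusted p of 0.0572 to 0.177 in limma. That of Vti1a was lost when vehicle replicate 1 or 3 or LPC replicate 1 was left out (0.0718 to 0.196).

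Of 28 tested F-BAR and clathrin genes, the partners of Pacsin1 in endocytosis, 2 fell and none rose. These were Fes, a tyrosine kinase with an F-BAR domain, by 0.47 (adjusted p = 0.0226, limma), and Synj2, a phosphoinositide phosphatase, by 0.42 (adjusted p = 0.0373, limma). Dynamin 2 (Dnm2), at 78.00 to 88.54 FPKM with vehicle and 68.92 to 81.56 FPKM with LPC, did not pass (-0.12, adjusted p = 0.395, limma). The call of Fes was lost when vehicle replicate 3 or LPC replicate 1 or 2 was left out (0.0524 to 0.0857), and that of Synj2 in every fit with 1 library left out except that without LPC replicate 2 (0.0646 to 0.106). The 2 relatives of Fam171b were too low to test.

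**Figure D4:**
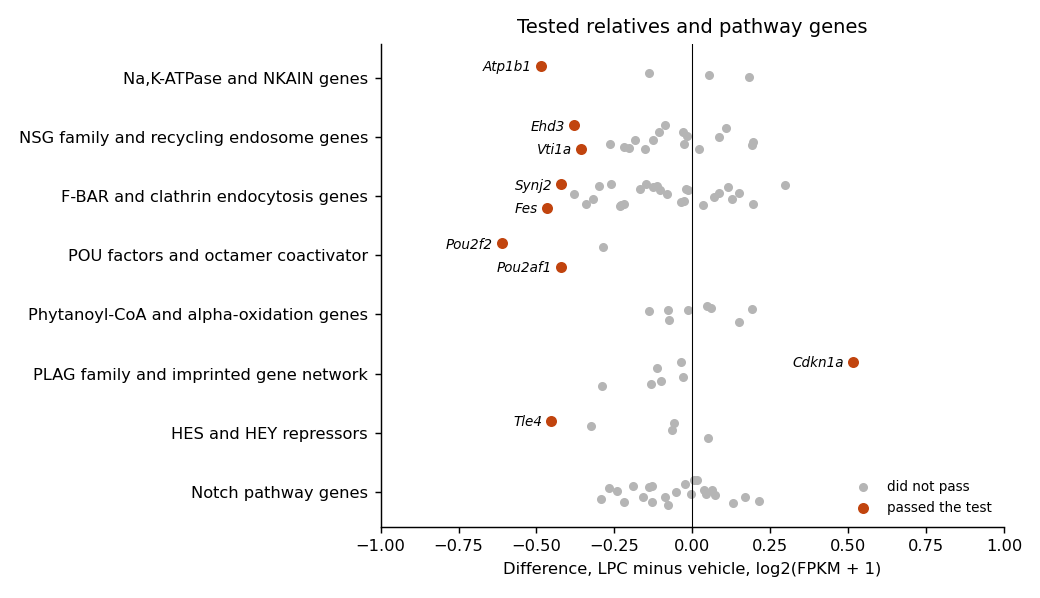
Difference, LPC minus vehicle, on the log2(FPKM + 1) scale of the 96 tested relatives and pathway genes, by list; orange points passed limma's test at an adjusted p under 0.05. The 8 orange points left of 0 run from Pou2f2 at -0.61 to Vti1a at -0.36, and Cdkn1a at 0.52 is the only one to the right; the FAM171 list has no tested gene.

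Of the 12 listed POU genes, including the octamer coactivator, 3 were expressed enough to test, and 2 of them fell. Pou2f2 (Oct2), a lymphocyte octamer factor, was at 11.35, 12.84 and 11.84 FPKM in vehicle replicates 1 to 3 and at 7.22, 8.64 and 6.77 FPKM in LPC replicates 1 to 3. The groups were apart, and it fell by 0.61 (adjusted p = 0.00325, limma), a call kept in every fit with 1 library left out. Its coactivator Pou2af1 fell by 0.42 (adjusted p = 0.0298, limma), a call lost in every such fit except that without LPC replicate 2 (0.0573 to 0.115). Pou2f1, the widely expressed octamer factor, differed by -0.29 (adjusted p = 0.134, limma).

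None of the 8 tested phytanoyl-CoA and α-oxidation genes passed (limma, none with an unadjusted p under 0.05). Phyh, the phytanoyl-CoA hydroxylase, was at 18.22 to 21.75 FPKM with vehicle and 16.84 to 19.18 FPKM with LPC (-0.14, adjusted p = 0.354, limma, 95% interval -0.35 to 0.07).

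Of 7 tested genes in the list of the PLAG family and the imprinted gene network, Cdkn1a rose and none fell. Cdkn1a is in this list but is itself neither a PLAG gene nor imprinted, and no other tested gene of the list passed. Cdkn1a encodes p21, an inhibitor of cyclin-dependent kinases. It was at 122.67, 119.22 and 99.10 FPKM in vehicle replicates 1 to 3 and at 158.96, 153.54 and 175.21 FPKM in LPC replicates 1 to 3, so the groups did not overlap, and it rose by 0.52 (adjusted p = 0.00673, limma).

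Among 5 tested HES and HEY repressors and their corepressors, Tle4, a Groucho corepressor, fell by 0.45 (adjusted p = 0.0201, limma), a call lost without vehicle replicate 1 (adjusted p = 0.0905, limma) or vehicle replicate 2 (adjusted p = 0.0523, limma). Hes6 was at 15.19 to 17.08 FPKM with vehicle and 14.25 to 18.70 FPKM with LPC, and did not pass (0.05, adjusted p = 0.794, limma). Hes1 and Hes5, the common Notch targets, and Hey1 stayed at or under 0.32 FPKM in every library. None of the 23 tested genes of the Notch pathway passed (limma; 4 had an unadjusted p under 0.05), among them Notch1 (0.13, adjusted p = 0.482, limma), Notch2 (-0.29, adjusted p = 0.133, limma) and the pathway's DNA-binding factor Rbpj (0.04, adjusted p = 0.841, limma).

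Markers of other cell types were mostly near 0. Of 24 neuronal and synaptic markers, 18 stayed under 1 FPKM in every library, and the summed level of all 24 was 63.8 to 69.5 FPKM with vehicle and 57.6 to 70.0 FPKM with LPC. Most of this sum came from Vamp2 and Dlg4. Vamp2 was at 36.82 to 41.25 FPKM with vehicle and 33.63 to 41.16 FPKM with LPC, and Dlg4 at 17.35 to 19.16 and 12.37 to 17.31 FPKM. Of the 5 tested markers, the ubiquitin hydrolase Uchl1 rose: it was at 1.14, 1.19 and 0.45 FPKM in vehicle replicates 1 to 3 and at 2.63, 2.37 and 3.14 FPKM in LPC replicates 1 to 3 (0.97, adjusted p = 0.00171, limma). The other tested markers did not pass. Dlg4 was lower in every LPC library (-0.32, adjusted p = 0.0768, limma) and Tubb3 was higher in every one (0.32, adjusted p = 0.0546, limma). Vamp2 (-0.125) and Stx1a (-0.09) had overlapping ranges. For plasmacytoid dendritic cells, in which Pacsin1 is known to be expressed, 11 markers summed to 317.5 to 346.6 FPKM with vehicle and 344.9 to 414.5 FPKM with LPC, mostly from Bst2 and Irf8. Of these markers Siglech stayed at or under 0.05 FPKM and Pld4 at or under 0.12 FPKM, while Tcf4 fell by 0.35 (adjusted p = 0.049, limma) and Runx2 by 0.35 (adjusted p = 0.0427, limma). Both calls were lost when replicate 1 or 2 of vehicle or replicate 1 or 3 of LPC was left out, and that of Runx2 also when vehicle replicate 3 was (0.113 to 0.231 for Tcf4, 0.0553 to 0.164 for Runx2).

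Markers of the remaining cell types differed in level. The 8 markers of B cells summed to at most 3.03 FPKM, and Ebf1 rose by 0.42 (adjusted p = 0.0362, limma), a call lost in every fit with 1 library left out except that without LPC replicate 3 (0.0552 to 0.129). The markers of macrophages and monocytes summed to 13.6 to 14.7 FPKM with vehicle and 12.8 to 15.5 FPKM with LPC, with Csf1r at or under 0.01 FPKM, and those of neutrophils to at most 0.28 FPKM. Those of CD8 T and NK cells summed to 20.3 to 23.3 FPKM with vehicle and 16.4 to 18.1 FPKM with LPC. Most of this came from Cd8b1, at 13.35 to 14.19 FPKM with vehicle and 10.57 to 12.55 FPKM with LPC (-0.22, adjusted p = 0.142, limma), lower in every LPC library, while Cd8a stayed at or under 0.33 FPKM. In the same list Eomes, which T cells also express, fell by 0.49 (adjusted p = 0.0146, limma), a call lost when vehicle replicate 2 or 3 or LPC replicate 1 was left out (0.0539 to 0.0566). The part of cells other than CD4 T cells in the differences of the 9 genes was not tested.

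Of the tested genes next to the 9 on their 7 chromosomes, 3 passed the test. The 36 nearest listed genes, the nearest 2 on each side of each gene, included 31 tested genes, of which 1 rose and 2 fell (limma, adjusted p under 0.05), 9.68% against 13.7% of all tested genes. This order did not hold across settings: in each of the 6 fits with 1 library left out the neighbours' share was the higher one, from 9.68% against 5.06% of all genes without vehicle replicate 1 to 29.0% against 20.0% without LPC replicate 2. Their median absolute difference was 0.153, against 0.146 for all tested genes. Next to Hes7, 8941 bases away, Per1, a gene of the circadian clock, was at 41.68, 47.29 and 47.25 FPKM in vehicle replicates 1 to 3 and at 34.53, 29.80 and 21.17 FPKM in LPC replicates 1 to 3, and fell by 0.68 (adjusted p = 0.00788, limma). Next to Phyhd1, 2080 bases away, Dolk, the dolichol kinase of protein glycosylation, rose by 0.50 (adjusted p = 0.00757, limma), opposite in direction to Phyhd1. Smagp, the second gene after Pou6f1, 21278 bases away, fell by 0.60 (adjusted p = 0.00404, limma). These 3 calls were kept in every fit with 1 library left out, and with no filter on low values 0 neighbours passed (limma, 9 with an unadjusted p under 0.05).

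Most of the nearest neighbours did not pass. Beside Nkain1 was Snrnp40 (0.07), for Nsg1 they were Stx18 (-0.18) and Zbtb49 (-0.20), and for Plagl1 Sf3b5 (0.32) and Ltv1 (-0.13). For Fam171b they were Itgav (-0.32, adjusted p = 0.0605, limma) and Calcrl (-0.14). Beside Nsg2 were Cpeb4 (-0.27) and Il9r, which was too low to test, and beside Pacsin1 Rps10 (-0.02) and Spdef, also too low. Pou6f1 lay between Tfcp2 (0.05) and Dazap2 (-0.03), which did not pass either, before Smagp. Lrrc8a (-0.20), on the other side of Phyhd1 from Dolk, did not pass, and Aloxe3 beside Hes7 was at or under 0.19 FPKM.

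**Figure D5:**
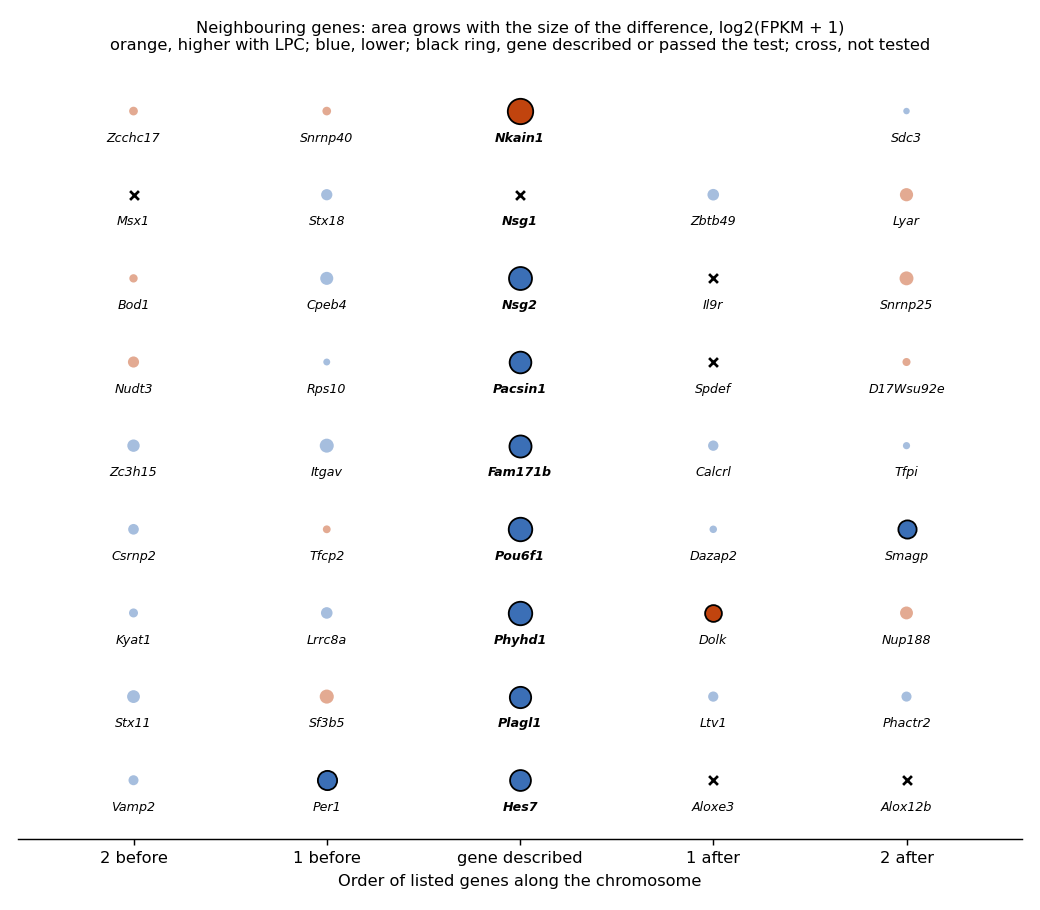
The nearest listed genes, up to 2 before and 2 after each of the 9 genes along the chromosome; circle area grows with the size of the difference, LPC minus vehicle, on the log2(FPKM + 1) scale (orange higher, blue lower, black ring for the genes described and for neighbours that passed limma's test, cross for not tested). Ringed neighbours are Per1 (-0.68), Smagp (-0.60) and Dolk (0.50).

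The genes whose levels followed each of the 8 most closely were found among 7778 tested genes with a mean of 5 FPKM or more, by Pearson's r of log2(FPKM + 1) over the 6 libraries, as a description. For Nkain1 they were Ifrd2 (r = 0.995) and Asl (r = 0.994), for Nsg2 Pdcd4 (0.998) and Gas2 (0.996), and for Pacsin1 St6gal1 (0.998) and Sec24d (0.997). For Fam171b they were Senp7 (0.998) and Trim12c (0.997), and for Phyhd1 Surf4 (0.993) and Gucd1 (0.992). Among the transcription factors, Pou6f1 was followed by Fscn1 (0.999) and Btg1 (0.996), Plagl1 by Cd226 and Taf1d (0.997 each), and Hes7 by Slc11a2 (0.997) and Gimap3 (0.996). Such r are frequent with 6 libraries in 2 groups: each of the 8 genes had 68 to 297 genes with r over 0.95. Likeness in order did not mean likeness in size, since Surf4 differed by -0.15 where Phyhd1 differed by -1.05.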

How the data were processed

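RNA sequencing was done in 6 libraries, 3 with vehicle and 3 with LPC, grouped by the agent given in the labels. Per the labels' protocols, the authors aligned reads from a BGISEQ-500 to GRCm38 with Bowtie2 and computed gene levels with RSEM, whose versions are not stated there. What the authors deposited is FPKM, relative to each library's total, for 18046 genes, and RSEM divides reads shared by similar genes by estimate. Read totals were not used here: depth was estimated from the steps of low values, and no count test was run.

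From these values, 24 symbols turned into dates were restored through gene identifiers, and 17918 identifiers (99.3%) matched RefSeq's table of GRCm38.p6, which gave coordinates. Differences are LPC minus vehicle from limma 3.58.1 (limma-trend, R 4.3.3) on log2(FPKM + 1), over the 10138 genes that reached 1 FPKM in at least 3 libraries, two-sided, with p-values adjusted over all of them by Benjamini-Hochberg, and calls at an adjusted p under 0.05. This scale understates the change of low genes. In simulated data with these 10138 genes, the test recovered 86% of genes changed 1.5-fold and 100% of those changed 2-fold, with 16 false among 202 calls. There the noise was independent for each gene, and the folds were set on the log2(FPKM + 1) scale. Shifts shared by many genes of a library were not simulated, so these figures may not hold for the real libraries.

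The 9 genes, the gene lists and the tests were chosen with earlier results of these data known. Besides the 9 genes, the text names by rule their closest paralogs, up to 4 genes of each list that passed, the nearest neighbours, neighbours that passed and the 2 genes with the most similar pattern. Some genes that the rule names are not reported here. Dnm2, Notch1, Notch2 and Rbpj and single cell type markers were named in addition. Alternatives were a pseudocount of 0.1, no filter, a mean FPKM of 5 or more, quantile normalization, median centring, the replicate number as a block and each library left out. One more, chosen after seeing the data, removed trends with GC share and length by natural splines (4 degrees of freedom), for the 98.7% of tested genes with both.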

Additional observations from a re-analysis of the deposited data

How the results depend on the processing

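Of 101 values of the 8 tested genes from other settings, 96 moved by less than 1 SD of the replicates; their direction was fixed by the choice of the genes. The other 5 were, with a pseudocount of 0.1, 1.49 for Nkain1, -1.13 for Fam171b, -1.35 for Pou6f1 and -1.02 for Plagl1, and, with quantile normalization, -0.98 for Pou6f1. The smaller pseudocount raises differences of low genes by construction.

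Counts of calls moved more. Over all genes (1392) they were 191 with no filter, 2841 with the replicate block, 2257 with GC and length trends removed (chosen after seeing the data) and 513 to 2026 with 1 library left out (513 without vehicle replicate 1, 566 without its replicate 2, 702 without LPC replicate 1). Calls over 2-fold (20) were 57 with a pseudocount of 0.1 and 18 to 29 with 1 library left out. Calls among the relatives (9) were 0 with no filter (limma, 35 with an unadjusted p under 0.05), 5 with a mean FPKM of 5 or more, 5 with quantile normalization, 25 with the replicate block, 15 with the trends removed and 4 to 17 with 1 library left out (4 without any 1 vehicle library or LPC replicate 1, 17 without LPC replicate 2). In each of these settings the relatives' share was below that of all genes. It was 15.6% against 22.6% with the trends removed. Without vehicle replicate 1 it was 4.17% against 5.06%, and without LPC replicate 2 it was 17.7% against 20.0%. Calls among the neighbours (3) were 0 with no filter (limma, 9 with an unadjusted p under 0.05), where 1.06% of all genes passed. With a mean FPKM of 5 or more 1 neighbour passed (4.35% against 13.3% of all genes). With the replicate block 11 did (35.5% against 28.0%), and with the trends removed 7 did (22.6% of both). With 1 library left out 3 to 9 passed (9 without LPC replicate 2), each time a higher share than that of all genes. With no filter 18046 genes were tested, against 10138 in the main fit. The cause of these shifts, that with no filter included, was not tested.

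Of 647 values of the other named genes, 521 kept direction and call, 104 lost the call, 14 gained it and 8 reversed. The reversed ones belong to genes that did not pass: Hes6 (0.05) was -0.08 with the trends removed and -0.02 to 0.17 with 1 library left out. With 1 library left out, Tfcp2 (0.05) ran from -0.05 to 0.12. Rps10 (-0.02) was 0.03 with median centring and -0.11 to 0.07 with 1 library left out, and Dazap2 (-0.03) was 0.01 with median centring. Deviations of same-numbered libraries from their group means correlated at r of 0.018, 0.562 and 0.406 for replicates 1 to 3. Between different numbers, vehicle replicate 2 with LPC replicate 3 gave -0.498, and vehicle replicate 3 with LPC replicate 2 gave -0.447. Vehicle replicate 1 gave 0.018, -0.088 and 0.065 with LPC replicates 1 to 3. Whether the numbers pair the libraries was not settled, so the main fit has no pairing and the replicate block is given as an alternative. Depth limits Nsg1 most.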

Other observations

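Several genes of other kinds stood above, among or next to these 9 in the ranking of differences on the log2(FPKM + 1) scale. Tubb4a, a β-tubulin best known from brain, fell by 1.12 (adjusted p = 3.13e-05, limma), from a mean of 4.21 to 1.39 FPKM. Npcd fell by 1.00 (adjusted p = 0.000192, limma), from 2.21 to 0.613 FPKM, and the zinc finger gene Zfp467 fell by 0.82 (adjusted p = 0.0073, limma), from 3.90 to 1.73 FPKM. Clec2i, a lectin-like membrane protein that ranked just below Hes7, fell by 0.81 (adjusted p = 0.00118, limma), from 4.70 to 2.26 FPKM. The histone gene Hist1h3b fell by 1.23 (adjusted p = 0.0022, limma), from 2.14 to 0.343 FPKM, but near-identical histone genes share its reads. These genes were chosen after their values were seen, so their adjusted p-values are a description and not a test.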
